A study of Mus musculus with 6 samples.

Results

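The 39 genes described here encode proteins of the nucleolus that transcribe, process and assemble ribosomal RNA. They were chosen as a named list covering RNA polymerase I, the snoRNPs that modify rRNA, the small subunit processome and the assembly factors of the 40S and 60S subunits, and each was found by its symbol. All 39 were among the 23420 genes of the deposited table, and all 39 passed the filter on low values that left 17168 genes for the test. RNA-Seq had been performed on whole mouse lungs at E11.5dpc (embryonic day, *days post coitus*) to learn how mTORC1 controls branching. The 3 mutant libraries came from *Rptor* f/f; *Shh* Cre/+ embryos and the 3 control libraries from controls. Each library was a pool of 3 or 4 lungs of the same genotype. *Rptor* (Raptor in the labels) is the gene for the scaffold protein of mTORC1. A supplementary figure of the paper labels the controls of this stage *Shh* Cre/+. Its methods give *Rptor* f/+; *Shh* Cre/+ only for littermate controls of a later stage. Whether the controls used here carried a floxed allele of *Rptor* is therefore not settled. *Shh* Cre acts in the lung epithelium and was carried by the controls too. The other cells of the lung, mesenchyme among them, keep *Rptor* in both groups but contribute to every library.

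Ribosomes are made in the nucleolus, where RNA polymerase I transcribes a long precursor rRNA that is modified by box C/D and box H/ACA snoRNPs, cut, and folded with ribosomal proteins into the small and the large subunit. mTORC1 is known to drive this production at several steps, through the polymerase I initiation factor RRN3, through translation of ribosomal protein mRNAs and through transcription factors such as MYC. Rapidly dividing embryonic cells carry large nucleoli and high levels of these mRNAs.

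The libraries held 20197642 to 21276090 reads assigned to genes, and values are given as normalized counts, that is reads per gene after division by the library's size factor. Log2 fold changes are those of log2(normalized count + 1), mutant over control, from limma fitted across all 17168 genes, and adjusted p-values are Benjamini-Hochberg values over all of them. In all, 86 genes passed an adjusted p of 0.05. *Rptor* itself was at 2199 ± 77.0 in control and 2103 ± 69.1 in mutant pools (SD, n = 3 each; log2 fold change -0.06, adjusted p = 0.584), a count over the whole gene in whole lung that does not show how much of the epithelium had lost the floxed part. Epithelial markers were detected, and 18 of 20 were lower in mutant pools, 7 of them past the threshold. Their summed level was 19805 to 23345 in control and 15857 to 17208 in mutant pools. All 15 mesenchymal markers were higher, 3 past the threshold, with sums of 113028 to 120665 in control and 136693 to 143682 in mutant pools. Without control pool 3, described next, 15 epithelial markers were lower and 6 mesenchymal markers higher past the threshold, and without control pool 1 or mutant pool 3 none of either list passed. Within the lists the log2 fold changes ran from -1.04 to 0.44 for epithelial and from 0.03 to 0.59 for mesenchymal markers. Numbers of cells of a type, RNA per cell and changes of single genes cannot be told apart in these bulk samples.

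Control pool 3 stood apart from the other controls for the nucleolar genes. The median of the 39 genes, on the log2 scale and relative to the mean of the 6 pools, was 0.08 in control pool 1, 0.11 in control pool 2 and -0.04 in control pool 3, against -0.05 in each mutant pool. Control pool 3 was the lowest control for 33 of the 39 genes (84.6%), compared with 46.3% of the 7832 tested genes with a mean of at least 500. It also had the lowest summed level among the controls of 20 cell cycle genes (112098) and of several marker lists. These were epithelial (19805), mesenchymal (113028), endothelial (15180), mesothelial (3947) and macrophage markers (2157). Its sums of erythroid (128422) and neural markers (4159) were the highest of the controls, and that of cardiac muscle markers (1144) was intermediate. The main counts of the 39 genes are given with and without this pool. So are those of other ribosome biogenesis genes, ribosomal protein genes, cell cycle genes and epithelial and mesenchymal markers. Role groups and the remaining lists are given with it only. The pool was singled out after the values were seen.

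Nearly all of the nucleolar genes were slightly lower in the mutant lungs, and none passed the adjusted threshold in limma. Of the 39 genes, 37 (94.9%) had a negative log2 fold change, compared with 50.5% of all tested genes, and the count was 34 to 38 over all other settings tried. The median was -0.10 (range -0.30 for *Rrp12* to 0.05 for *Nop10*), against -0.0021 for all tested genes. At an adjusted p under 0.05, 0 members were lower and 0 higher, where 0.315% of all tested genes were lower and 0.186% higher. At an unadjusted p under 0.05, 12 of 39 were lower and 0 higher, where 6.89% of all tested genes were lower and 6.67% higher. In 14 of 39, all 3 mutant pools lay below all 3 control pools, and in 0 they lay above. Among all tested genes such separation occurred in 10.5% and 9.77%.

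With edgeR on the recovered reads, 0 members passed (0.341% of all genes it tested were lower past the threshold), and 12 were lower at an unadjusted p under 0.05 (7.77%). With DESeq2, 3 passed, namely *Rrp12*, *Utp20* and *Heatr1*, where 1.16% of genes were lower past the threshold. Without control pool 3, 9 members were lower past the limma threshold against 1.68% of all tested genes, and 30 at an unadjusted p under 0.05 against 8.58%. Also without it, 33 were separated against 17.8%. The 9 genes were *Ddx21*, *Bop1*, *Rrp12*, *Heatr1*, *Utp20*, *Utp15*, *Nolc1*, *Nop56* and *Nop2*. Control pool 3 was singled out as low for these same members, so leaving it out tends to raise their counts by that choice. The shares of all tested genes carry no such choice and are not a like baseline for this fit. On leaving out any 1 of the other 5 pools in place of control pool 3, 0 members passed and 7 to 11 were lower at an unadjusted p under 0.05, against 4.92% to 7.97% of all tested genes. In those 5 fits 14 to 19 members were separated, against 14.1% to 17.1%.

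**Figure D1:**
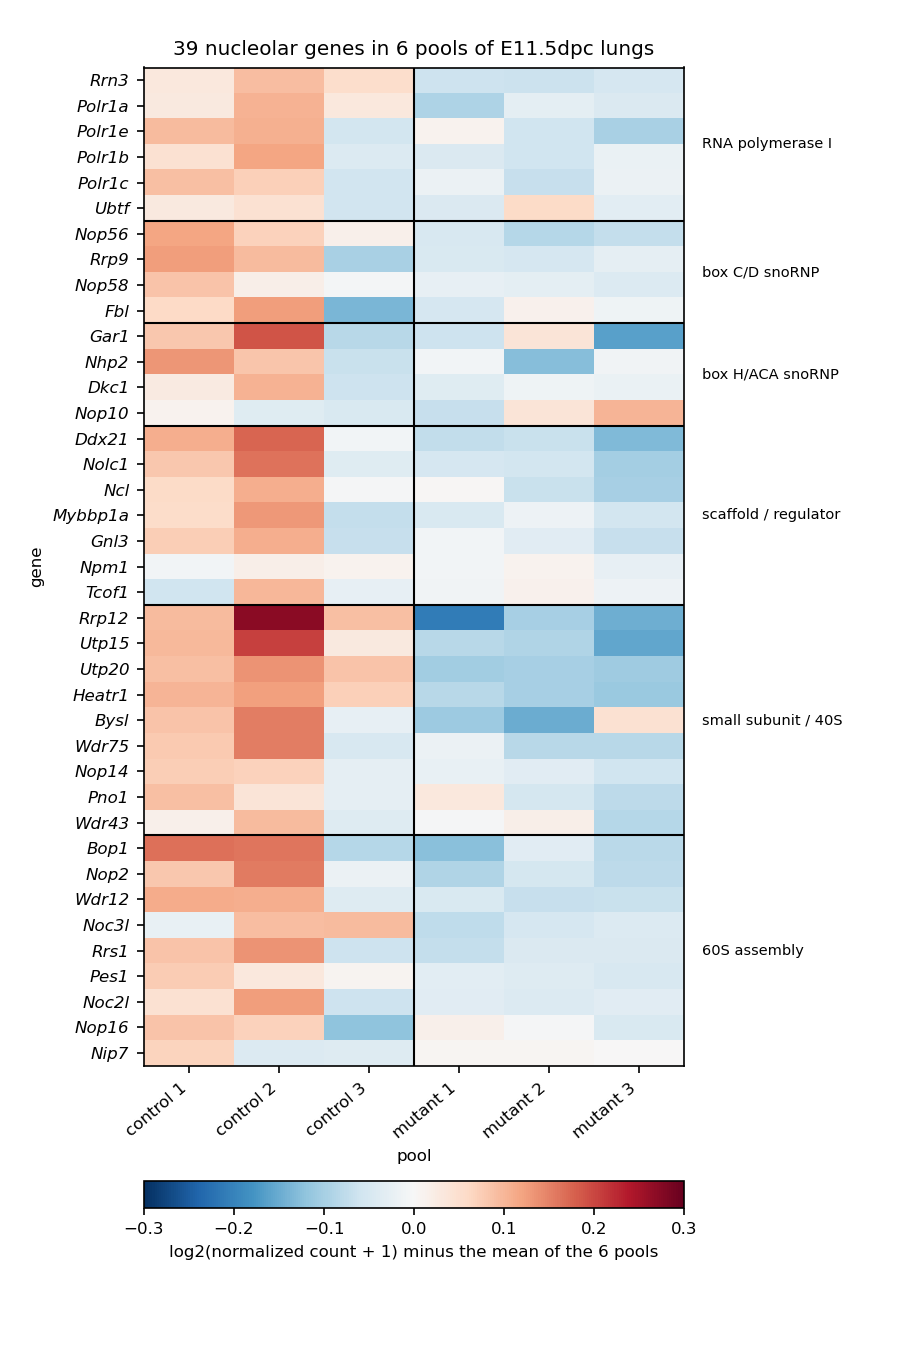
Level of each of the 39 genes (rows, grouped by role) in the 3 control and 3 mutant pools (columns), as log2(normalized count + 1) minus the gene's mean over the 6 pools; red is above and blue below that mean. Control pools 1 and 2 are red in most rows, while control pool 3 is pale or blue in many and was the lowest control for 33 of 39 genes.

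The factors of the small subunit processome and of 40S assembly had the lowest median of the 6 role groups, -0.14, and all 9 were lower. At an unadjusted p under 0.05, 4 of them were lower, against 6.89% of all tested genes. *Rrp12*, a HEAT-repeat factor needed for pre-40S maturation and export, had the most negative log2 fold change of the 39 genes. Its normalized counts were 1235, 1394 and 1231 in the control pools and 999.3, 1079 and 1044 in the mutant pools. The highest mutant pool did not reach the lowest control, and the fitted value was 19.0% lower (log2 fold change -0.30 ± 0.06 SE, adjusted p = 0.071).

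*Utp20*, a very large scaffold protein of the processome, was at 2260, 2333 and 2255 in control and at 1977, 1982 and 1972 in mutant pools. The mutant pools were nearly identical to each other (SD 4.82) and 13.4% below control (log2 fold change -0.21 ± 0.04 SE, adjusted p = 0.0631). *Heatr1*, the homologue of yeast UTP10 that joins the processome to rDNA transcription, was at 2612, 2649 and 2555 in control and at 2295, 2270 and 2253 in mutant pools. The groups did not overlap, and the fitted value was 12.8% lower (adjusted p = 0.0699). *Utp15*, another protein of the complex that links transcription to processing, was at 1536, 1655 and 1466 in control and at 1355, 1348 and 1290 in mutant pools. These groups too were separate, with a log2 fold change of -0.22 ± 0.06 SE (adjusted p = 0.125). Without control pool 3, the adjusted p was 0.0124 for *Rrp12*, 0.0153 for *Utp20*, 0.0141 for *Heatr1* and 0.0169 for *Utp15*. Without any 1 of the other 5 pools it was above the threshold for each of them, at 0.078 to 0.33 for *Rrp12*, 0.0785 to 0.319 for *Utp20*, 0.0835 to 0.35 for *Heatr1* and 0.157 to 0.452 for *Utp15*.

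In the other 5 members of this group the control and mutant pools overlapped. *Wdr75* (log2 fold change -0.12, adjusted p = 0.378) and *Wdr43* (-0.05, adjusted p = 0.727) belong to the same transcription-linked complex as *Utp15* and *Heatr1*. *Bysl*, a pre-40S factor, was at 1482, 1554 and 1374 in control and 1296, 1261 and 1442 in mutant pools, so that mutant pool 3 lay above control pool 3. *Nop14*, a processome component, had a log2 fold change of -0.08 and *Pno1*, which binds near the end of the 18S rRNA, one of -0.07.

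**Figure D2:**
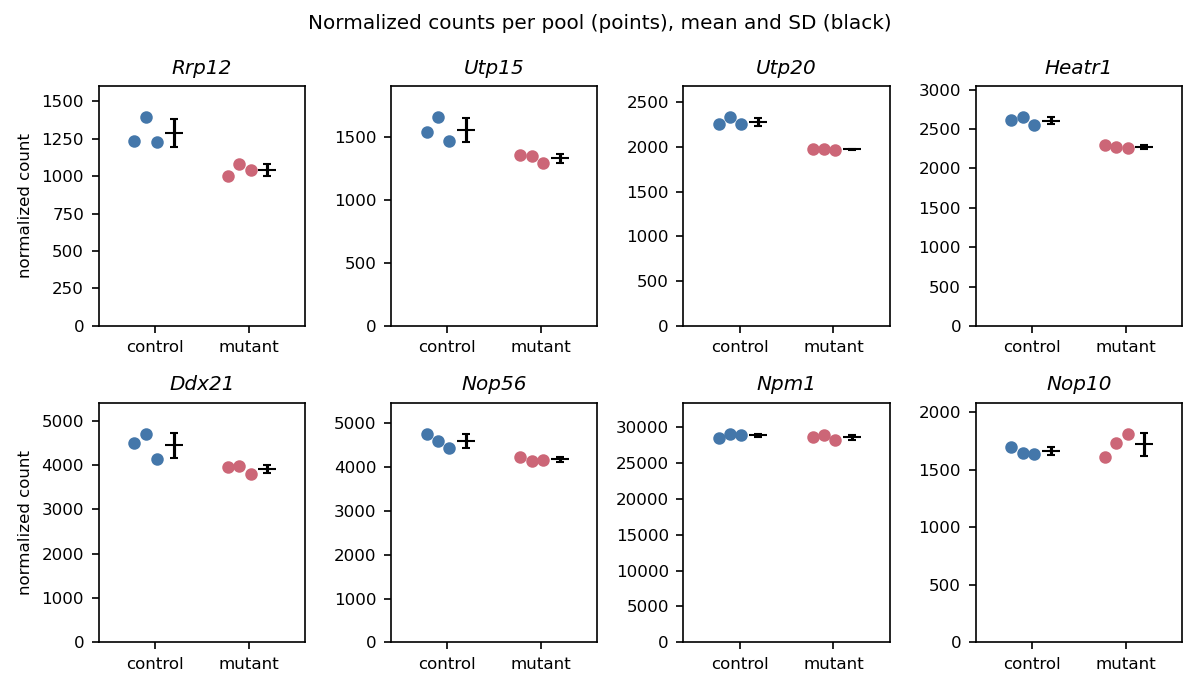
Normalized counts of 8 of the genes in each of the 3 control (blue) and 3 mutant (red) pools, with the mean and SD in black; each vertical axis starts at 0. The mutant points lie below all control points for *Rrp12*, *Utp15*, *Utp20*, *Heatr1*, *Ddx21* and *Nop56*, and overlap them for *Npm1* and *Nop10*.

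Because most members were lower together, their promoters were searched for 4 short motifs. The windows run from 250 bases before to 50 bases after each annotated start, are RefSeq sequences of GRCm38.p6, and were found for 33 of the 39 genes (41 windows). No window was matched for *Fbl*, *Npm1*, *Tcof1*, *Rrp12*, *Bop1* and *Rrs1*. The promoters of the 4 genes with the lowest p that had a window, and of *Nop10*, the gene with the highest log2 fold change, are printed 5′ to 3′ on the gene's strand. They lie at chr10:88826765-88827064 (*Utp20*, minus strand), chr13:12395125-12395424 (*Heatr1*, plus strand), chr13:98262943-98263242 (*Utp15*, minus strand), chr10:62602249-62602548 (*Ddx21*, minus strand) and chr2:112261676-112261975 (*Nop10*, plus strand). Capitals mark CACGTG, the E-box bound by MYC and other factors, and CGGAAG or its reverse complement CTTCCG, the core bound by ETS family factors.
Utp20 promoter: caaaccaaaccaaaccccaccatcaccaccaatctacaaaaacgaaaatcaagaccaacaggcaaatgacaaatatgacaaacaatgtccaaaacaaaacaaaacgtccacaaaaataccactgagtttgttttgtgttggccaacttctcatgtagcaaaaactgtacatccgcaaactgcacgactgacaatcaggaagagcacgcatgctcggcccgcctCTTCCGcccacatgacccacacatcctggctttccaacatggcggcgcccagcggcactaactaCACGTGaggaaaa
Heatr1 promoter: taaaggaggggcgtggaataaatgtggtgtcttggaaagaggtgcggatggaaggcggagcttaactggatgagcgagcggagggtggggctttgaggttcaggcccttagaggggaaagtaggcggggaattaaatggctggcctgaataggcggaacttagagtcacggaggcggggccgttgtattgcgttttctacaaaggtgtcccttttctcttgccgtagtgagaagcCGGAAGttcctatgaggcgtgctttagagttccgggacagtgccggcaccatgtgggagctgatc
Utp15 promoter: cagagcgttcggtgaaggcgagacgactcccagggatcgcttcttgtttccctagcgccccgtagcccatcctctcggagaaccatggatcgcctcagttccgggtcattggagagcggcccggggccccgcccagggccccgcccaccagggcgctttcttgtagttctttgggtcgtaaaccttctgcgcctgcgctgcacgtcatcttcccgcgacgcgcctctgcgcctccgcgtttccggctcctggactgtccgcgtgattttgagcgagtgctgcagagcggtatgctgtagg
Ddx21 promoter: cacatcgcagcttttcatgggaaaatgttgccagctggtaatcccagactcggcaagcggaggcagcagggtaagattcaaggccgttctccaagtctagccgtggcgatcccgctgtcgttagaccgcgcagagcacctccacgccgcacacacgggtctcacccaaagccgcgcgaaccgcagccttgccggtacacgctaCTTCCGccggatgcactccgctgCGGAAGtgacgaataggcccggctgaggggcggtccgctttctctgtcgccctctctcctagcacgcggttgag
Nop10 promoter: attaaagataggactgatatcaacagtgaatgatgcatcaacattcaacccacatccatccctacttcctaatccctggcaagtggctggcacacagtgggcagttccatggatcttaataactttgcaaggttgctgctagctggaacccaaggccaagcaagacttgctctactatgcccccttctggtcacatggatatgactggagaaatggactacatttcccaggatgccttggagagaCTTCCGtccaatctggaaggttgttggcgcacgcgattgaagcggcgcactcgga

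CACGTG stood in 7 of the 41 member windows (17.1%), compared with 7.15% of all promoter windows and 9.26% of those of tested genes. The 7 genes were *Rrn3*, *Mybbp1a*, *Utp20*, *Wdr43*, *Pno1*, *Pes1* and *Nop2*. CGGAAG, on either strand, stood in 19 windows (46.3%), compared with 16.9% of all windows and 25.7% of those of tested genes. TATAAA, also counted on either strand, stood in 2 windows (4.88%), compared with 13.6% of all windows and 8.1% of those of tested genes. The longer palindrome bound by BANP stood in 0, compared with 0.466% and 0.808%. All of the 33 genes with a window except *Nop10* and *Nip7* were lower, so a motif could hardly divide them by direction. Lower were 7 of 7 genes with CACGTG and 24 of 26 without, and 16 of 18 with CGGAAG and 15 of 15 without. The median log2 fold change was -0.08 over the 7 genes with CACGTG and -0.10 over the 26 without, and -0.11 over the 18 genes with CGGAAG and -0.08 over the 15 without. *Nop10* and *Nip7*, the genes not lower in mutant pools, both hold CGGAAG. A match of letters is not a binding site, and none was measured here.

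Of the 9 factors of 60S assembly, 8 were lower (median log2 fold change -0.11). At an unadjusted p under 0.05, 2 of them were lower, against 6.89% of all tested genes. In 4 the groups were separate with the mutant pools lower, against 10.5%. *Nop2*, a methyltransferase of 28S rRNA, was at 2064, 2175 and 1926 in control and 1832, 1882 and 1848 in mutant pools. All mutant pools were lower (log2 fold change -0.15 ± 0.05 SE, adjusted p = 0.241). *Bop1*, *Pes1* and *Wdr12* encode the 3 subunits of the PeBoW complex, which is required for 28S rRNA maturation. *Bop1* was at 2510, 2500 and 2108 in control and 2050, 2185 and 2116 in mutant pools. Its control pools 1 and 2 were high, and control pool 3 lay among the mutant pools (log2 fold change -0.16, adjusted p = 0.329). Leaving out control pool 3 gave it a log2 fold change of -0.24 (adjusted p = 0.0112), and without control pool 1 or control pool 2 it was -0.12 (adjusted p = 0.613 and 0.441).

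*Pes1* was at 3447, 3340 and 3288 in control and 3197, 3183 and 3158 in mutant pools. *Wdr12* was at 957.7, 955.6 and 862.8 in control and 858.3, 845.2 and 846.1 in mutant pools. In both the groups were separate, by a narrow margin, and the log2 fold changes were -0.08 (adjusted p = 0.403) and -0.12 (adjusted p = 0.399). *Noc3l*, at 902.7, 977.3 and 978.1 in control and 869.5, 885.4 and 891.2 in mutant pools, was the fourth gene with separate groups, whereas its partner in pre-60S transport *Noc2l* overlapped. *Rrs1*, which brings the 5S RNP into the pre-60S particle, had a log2 fold change of -0.11, and *Nop16* one of -0.02 that turned to 0.01 both without control pool 1 and without control pool 2. *Nip7*, a factor of pre-rRNA cleavage, was at 1151, 1067 and 1070 in control and 1104, 1103 and 1100 in mutant pools. The mutant values of *Nip7* lay between the control values (log2 fold change 0.01, adjusted p = 0.955), and its sign turned without control pool 2 (-0.01) or control pool 3 (-0.01).

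All 6 genes of RNA polymerase I transcription were lower, with a median of -0.09. *Rrn3*, the initiation factor that carries growth signals to the polymerase, was at 2615, 2724 and 2652 in control and 2448, 2442 and 2469 in mutant pools. The pools of each group were close to each other and did not overlap (log2 fold change -0.12 ± 0.04 SE, adjusted p = 0.218). *Polr1a*, the largest subunit of the enzyme, was at 3020, 3181 and 3023 in control and 2773, 2897 and 2871 in mutant pools, again without overlap (log2 fold change -0.11, adjusted p = 0.275). For both genes control pool 1, not control pool 3, was the lowest control. The second largest subunit *Polr1b* (-0.08), *Polr1c* (-0.07), which RNA polymerase III shares, and *Polr1e* (-0.10) had overlapping groups. *Ubtf*, which keeps rDNA open for transcription, was at 4800 to 5155 in control and 4848 to 5199 in mutant pools and had a log2 fold change of -0.01 (adjusted p = 0.939), which was at or above 0 on leaving out control pool 1, control pool 2, mutant pool 1 or mutant pool 3.

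Box C/D snoRNPs guide 2′-O-methylation of rRNA, and all 4 of their genes were lower (median -0.07). *Nop56*, a core protein, was at 4752, 4592 and 4425 in control and 4230, 4124 and 4165 in mutant pools. The groups were separate (log2 fold change -0.14 ± 0.04 SE, adjusted p = 0.176). Its paralogue in the particle *Nop58* was at 3720, 3552 and 3495 in control and 3446, 3438 and 3407 in mutant pools, also separate but closer (log2 fold change -0.06, adjusted p = 0.514). *Rrp9*, which binds the U3 snoRNA, had a log2 fold change of -0.08. The methyltransferase *Fbl* was at 4466, 4674 and 3895 in control and 4137, 4326 and 4248 in mutant pools, so that control pool 3 was the lowest of all 6 (log2 fold change -0.03, adjusted p = 0.866, and 0.02 without control pool 2).

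Box H/ACA snoRNPs guide pseudouridylation. Of their 4 genes, 3 were lower (median -0.07), and no group was separate. *Gar1* had a log2 fold change of -0.12 (adjusted p = 0.528), *Nhp2* of -0.10 (adjusted p = 0.517) and *Dkc1*, the pseudouridine synthase, of -0.05 (adjusted p = 0.727). *Nop10*, the smallest protein of the particle, was at 1703, 1650 and 1638 in control and 1613, 1737 and 1814 in mutant pools. Mutant pool 1 was below and the other mutant pools above all controls (log2 fold change 0.05, 95% interval -0.07 to 0.16, adjusted p = 0.742).

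Among the 7 scaffold and regulatory proteins, all were lower (median -0.08), 3 at an unadjusted p under 0.05, against 6.89% of all tested genes. *Ddx21*, a helicase that couples polymerase I transcription to processing, was at 4495, 4707 and 4144 in control and 3963, 3981 and 3805 in mutant pools. The mutant pools were 11.9% lower and separate from control (log2 fold change -0.18 ± 0.05 SE, adjusted p = 0.154). The adjusted p of *Ddx21* was 0.00826 without control pool 3 and 0.202 to 0.493 without any 1 of the other 5 pools. *Nolc1*, a chaperone of snoRNPs, was at 4299, 4548 and 3958 in control and 3923, 3909 and 3787 in mutant pools, where the margin between control pool 3 and the highest mutant pool was small (log2 fold change -0.14, adjusted p = 0.273). *Ncl*, nucleolin, was at 21109, 21859 and 20238 in control and 20328, 19366 and 18943 in mutant pools. Mutant pool 1 lay above control pool 3 (log2 fold change -0.11, adjusted p = 0.308). *Mybbp1a* and *Gnl3* each had a log2 fold change near the group median (-0.08 and -0.07), and their groups overlapped.

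*Npm1* and *Tcof1* were the members of this group with the smallest differences. *Npm1*, nucleophosmin, the histone chaperone that forms the outer layer of the nucleolus, was at 28517, 29042 and 28876 in control and 28528, 28898 and 28164 in mutant pools. The pools were interleaved, and the 95% interval of its log2 fold change of -0.01 ran from -0.09 to 0.06 (adjusted p = 0.898). *Npm1* has processed pseudogenes that could share its reads. *Tcof1*, treacle, a cofactor of polymerase I, was at 3750 to 4187 in control and 3867 to 3947 in mutant pools (log2 fold change -0.01, adjusted p = 0.954, and 0.04 without control pool 2).

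**Figure D3:**
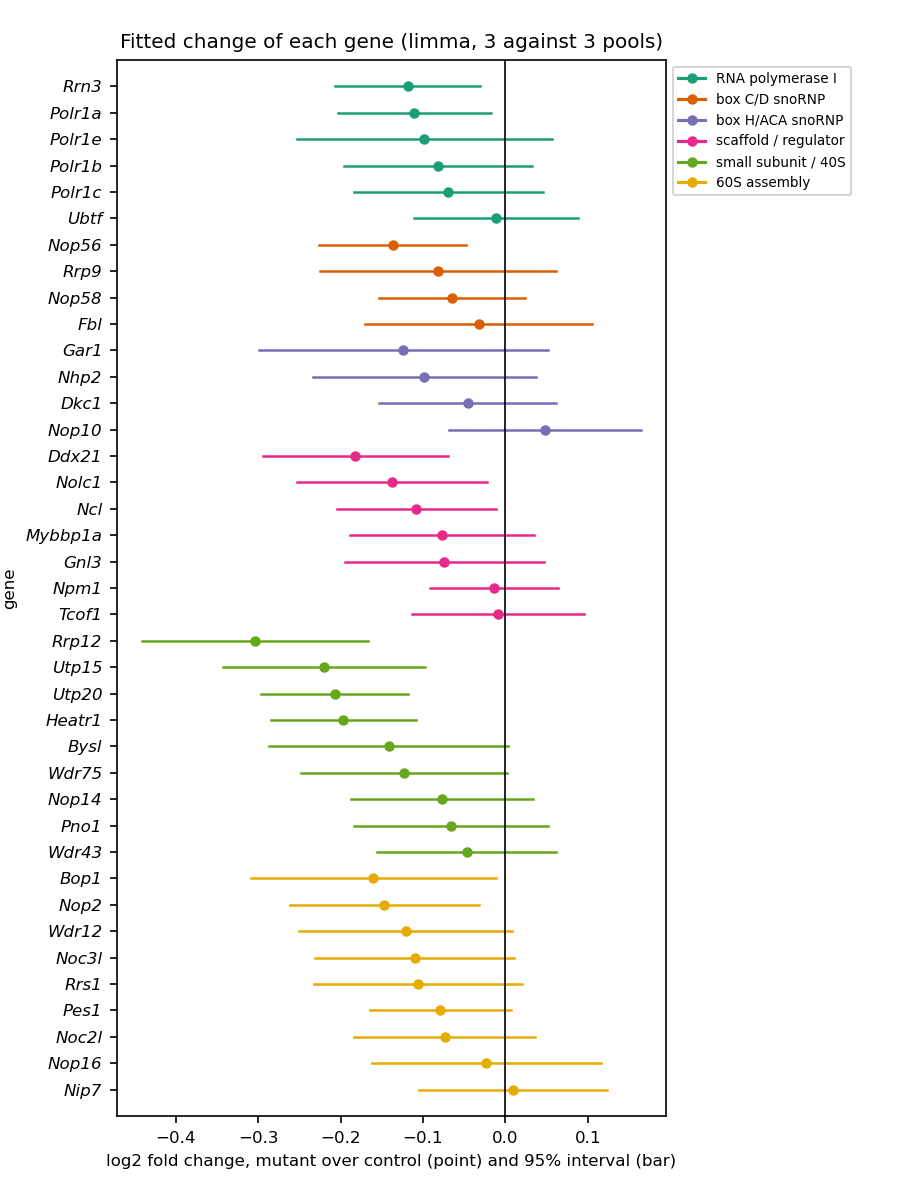
Log2 fold change, mutant over control, of each of the 39 genes (point) with its 95% interval from limma (bar), coloured by role. The 12 genes whose intervals lie wholly below 0 include *Rrp12*, *Utp15*, *Utp20* and *Heatr1*, and only *Nop10* and *Nip7* have points above 0, that of *Nip7* turning negative without control pool 2 or 3 and after the length adjustment.

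The level of the mRNAs in control lungs differed widely among members. Per kilobase of coding sequence, *Npm1* was at 32890 ± 306 normalized counts, *Ncl* at 9933 ± 383, *Nop10* at 8665 ± 181 and *Fbl* at 4429 ± 411 (SD, n = 3). At the other end were *Heatr1* at 405 ± 7.39, *Noc3l* at 394 ± 17.9, *Rrp12* at 331 ± 23.9 and *Utp20* at 273 ± 5.18. The lengths are those of the principal coding transcript of each gene in GENCODE M21.

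Ratios of partners in a complex, taken within a pool, are not touched by the scaling of the libraries. The log2 ratio of *Nop56* to *Nop58* was 0.35, 0.37 and 0.34 in control and 0.30, 0.26 and 0.29 in mutant pools. The mutant ratios all lay lower, by 0.07, with an exact two-sided permutation p of 0.1, the smallest that 3 pools against 3 can give (adjusted p = 0.48 over 8 ratios). In the other 7 ratios the groups overlapped. These were *Pes1* to *Bop1* and *Wdr12* to *Bop1*, *Gar1*, *Nhp2* and *Nop10* to *Dkc1*, *Polr1a* to *Polr1b* and *Ncl* to *Npm1*, with exact p-values of 0.2 to 0.6.

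The pathway was followed in 115 other ribosome biogenesis genes. Of these, 0 passed the adjusted threshold in limma and 86 were lower (74.8%, median -0.04). At an unadjusted p under 0.05, 14 were lower (12.2%, against 6.89% of all tested genes) and 0 higher. Without control pool 3, 94 were lower (median -0.07), 37 at an unadjusted p under 0.05 (32.2%, against 8.58% of all tested genes). In that fit 5 passed the adjusted threshold, against 1.68% of all tested genes. On leaving out 1 of the other pools, 70 to 89 were lower and 0 or 1 passed the threshold. In those fits 8 to 12 were lower at an unadjusted p under 0.05, against 4.92% to 7.97% of all tested genes. Without control pool 2 the share was below that of all tested genes (6.96% against 7.97%). The 45 other 60S factors held 39 that were lower, led by *Mdn1*, a giant ATPase that remodels pre-60S particles (log2 fold change -0.24, adjusted p = 0.132), *Urb2* (-0.20, adjusted p = 0.154) and *Rbm28* (-0.18, adjusted p = 0.193). The 43 other small subunit factors held 33 that were lower, led by the rRNA acetyltransferase *Nat10* (-0.16, adjusted p = 0.172), *Nol10* (-0.16, adjusted p = 0.202) and *Tbl3* (-0.20, adjusted p = 0.273). Among 11 other genes listed under polymerase I transcription 4 were lower (median 0.0034). That list also holds *Top1* and *Smarca4*, which do not act in polymerase I transcription alone. Among 16 rRNA processing nucleases 10 were lower (median -0.02).

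The cytosolic ribosomal proteins, whose mRNAs serve the same pathway, were on the opposite side of 0. Of 78 tested genes, 67 were higher (median log2 fold change 0.09). At an unadjusted p under 0.05, 26 were higher and 0 lower, against 6.67% and 6.89% of all tested genes. Past the adjusted threshold 1, *Rps18*, was higher (log2 fold change 0.71, adjusted p = 0.00105), against 0.186% of all tested genes. Relative to the mean of the 6 pools, the medians of these 78 genes were 0.03, -0.04 and -0.12 in control pools 1, 2 and 3. In the mutant pools the medians were 0.04 to 0.06. Control pool 3 was the lowest control for these genes too (64 of 78), and control pool 1 lay near the mutant pools. Without control pool 3, 60 were higher (median 0.05), 19 of them at an unadjusted p under 0.05, as were 1422 of 16993 tested genes. On leaving out 1 of the other pools, 66 to 69 were higher, and those at an unadjusted p under 0.05 numbered 13 (without mutant pool 2) to 39 (without control pool 1). Higher at that p in those fits were 876 of 17033 and 914 of 17007 tested genes. Genes of this kind have many processed pseudogenes, and their counts are uncertain to that extent. The difference between the lists was not tested.

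**Figure D4:**
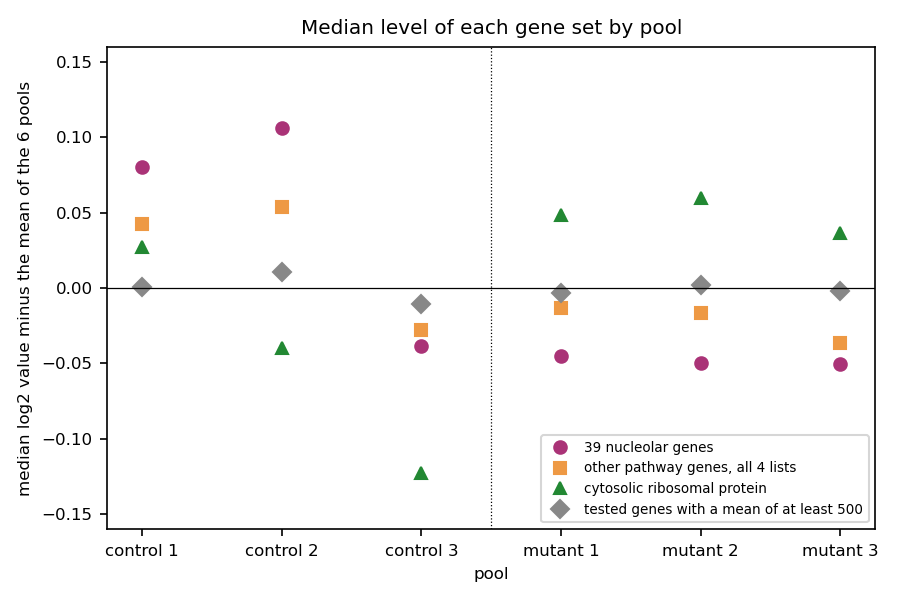
Median log2 value of 4 gene sets in each pool, relative to the mean of the 6 pools. The 39 nucleolar genes are at 0.08 and 0.11 in control pools 1 and 2 and at -0.04 in control pool 3, near the -0.05 of the mutant pools, while the ribosomal protein genes are lowest in control pool 3.

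**Figure D5:**
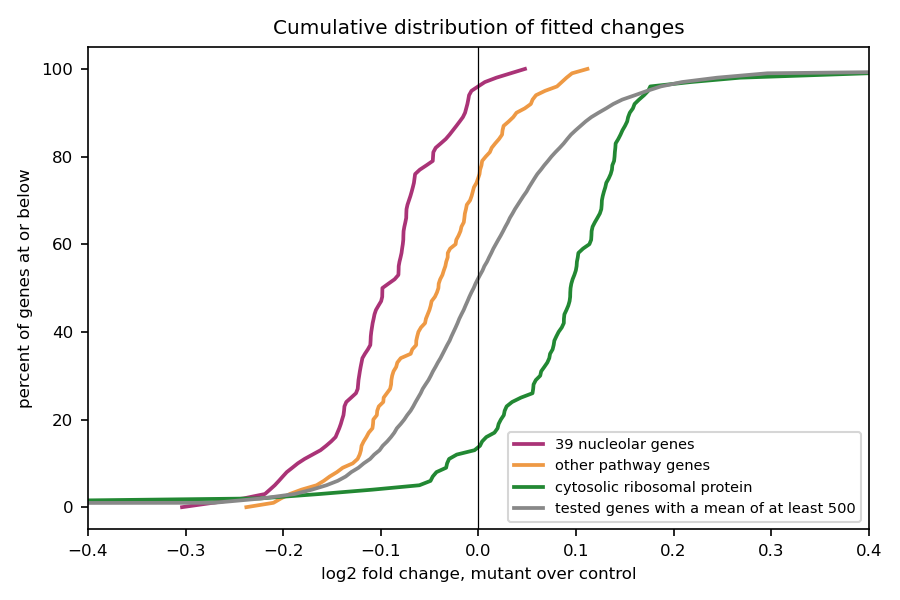
Cumulative percent of genes (vertical axis) at or below a given log2 fold change, mutant over control (horizontal axis, drawn from -0.4 to 0.4), for the 39 nucleolar genes, 115 other pathway genes, 78 ribosomal protein genes and the 7832 tested genes with a mean of at least 500. The medians are -0.10, -0.04, 0.09 and -0.0048.

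Small nucleolar RNAs are encoded in introns of host genes, and 6 of the 39 members (*Nop56*, *Nop58*, *Dkc1*, *Ncl*, *Gnl3* and *Wdr43*) host 19 annotated snoRNA genes. All 6 were lower, with a median of -0.07, against -0.10 for the 33 that host none. Of 15 snoRNA host genes outside the list, 10 were lower and 5 higher. They were led by *Snhg8* (log2 fold change 0.30, adjusted p = 0.192), and 0 passed the threshold.

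Other features moved beside the nucleolar genes, and their part in the result was not tested. Of 20 cell cycle genes, 18 were lower (median -0.08), 8 of them at an unadjusted p under 0.05, against 6.89% of all tested genes. Past the adjusted threshold there were 0. The summed level of the 20 genes was 112098 to 118913 in control and 109236 to 110592 in mutant pools. With control pool 3 left out, 19 of the cell cycle genes were lower. In that fit 12 were lower at an unadjusted p under 0.05 (8.58% of all tested genes) and 4 past the adjusted threshold (1.68%). On leaving out 1 of the other pools 0 of the cell cycle genes passed. Cardiac muscle markers were lower in 7 of 8, with sums of 1022 to 1158 against 741.2 to 858.3. Endothelial markers were higher in 9 of 10, mesothelial in 5 of 6 and macrophage markers in 9 of 10, while neural (5 of 10 higher) and erythroid markers (2 of 8 tested higher) were divided. Of all these markers, *Hba-a1* alone was at 0 in every pool.

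Coding length also moved with the log2 fold change. Over the 39 members Spearman's rho between coding length and log2 fold change was -0.427, and over 7398 tested genes with a mean of at least 500 and a coding length it was -0.215, in both cases across genes that share the same 6 libraries. The median log2 fold change was -0.07 in the third of members with the shortest coding sequences and -0.11 in the third with the longest. Across all those genes it went from 0.028 in the shortest of 5 bins of nearly equal size to -0.0293 in the longest. The median coding length of the members was 1752 bases, and that of the ribosomal protein genes 454. After the length trend of each library was subtracted, 36 of 39 members were still lower (median -0.08). At an unadjusted p under 0.05, 7 members were lower (5.93% of all genes in that fit), and 0 passed the adjusted threshold (0.292%). Of the 78 ribosomal protein genes, 63 were still higher in that fit (median 0.08), where 7845 of 15061 genes were higher.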

How the data were processed

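Whole-lung RNA of 3 control and 3 mutant pools at E11.5dpc was sequenced on BGISEQ-500. Trim Galore, HISAT2, featureCounts, DESeq2 and the build mm10 are named in the submitters' processing notes, without versions; strandedness and filters are not given in the sources used here. The authors deposited normalized counts (a signal: reads per gene after division by the library's size factor), their mean, and their own fold changes, standard errors, statistics and p-values, which were not used. Groups and replicate numbers come from the labels. The methods state that mutants of different litters were combined; which litters make up each pool is not given in the sources used here, and p-values measure the spread between these pools.

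Values were compared as log2(normalized count + 1) with limma 3.58.1 (R 4.3.3; variance trend, genes of at least 1 in at least 3 libraries, Benjamini-Hochberg, threshold 0.05, no block). All normalized counts were whole multiples of a step, within 0.01 read (100% of values). The reads so recovered entered edgeR 4.0.16 and DESeq2 1.42.0 as alternatives; the step of control pool 3 is so near 1 that it could not be checked independently. Intervals are 95%. Fold changes on this scale understate those of low genes. Members, lists and tests were chosen with earlier results of these data known, and the text names all members and up to 3 genes of a list by lowest p. Symbols of 27 genes turned into dates were left as they are. The scripts were tested on simulated data. Positions and lengths are from GENCODE M21 (GRCm38). The length adjustment (a spline of 5 df) was chosen after seeing the data.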

Additional observations from a re-analysis of the deposited data

How the results depend on the processing

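For all genes the 86 calls became 277 with DESeq2 and 8 without the variance trend, and leaving out 1 pool gave 1 to 468 (1 without control pool 1 or mutant pool 3, 12 without mutant pool 1, 21 without mutant pool 2, 147 without control pool 2 and 468 without control pool 3). Members past the adjusted threshold numbered 3 with DESeq2, and 0 to 9 on leaving out 1 pool, 9 without control pool 3. Members at an unadjusted p under 0.05 numbered 7 without the variance trend (where 5.75% of all tested genes were lower at that p), 7 after the length adjustment (5.93%), and 7 to 30 on leaving out 1 pool, 7 without control pool 2 (7.97%) and 30 without control pool 3 (8.58%). Members with separate groups numbered 14 to 33 on leaving out 1 pool, 33 without control pool 3. Separation is more frequent for any gene with fewer pools, with 10.5% of all tested genes lower and separate in 6 pools, 14.1% to 17.8% in 5 and 17.8% without control pool 3. The cause was not tested. Control pool 3 had been singled out as low for the members, so the shares of all tested genes are not a like baseline for the counts without it.

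The count of members lower in mutant pools was 34 to 38 and their median -0.13 to -0.07 over all alternatives. Genes near 0 changed sign. After the length adjustment *Nip7* was at -0.0056, *Tcof1* at 0.0135 and *Ubtf* at 0.005. On leaving out 1 pool, *Fbl* ran from -0.109 to 0.0224, *Nip7* from -0.0095 to 0.0451, *Nop16* from -0.0894 to 0.0142, *Tcof1* from -0.0411 to 0.0384 and *Ubtf* from -0.0429 to 0.009. The deviations of same-numbered control and mutant pools from their group means were weakly correlated (r = -0.0189, 0.101 and 0.0307). Those of differently numbered pools ranged from -0.106 to 0.0844. With 3 pools per group, these values cannot tell whether the numbers pair the samples. With the replicate number as a block, 71 genes and 0 members passed, and the median was -0.10. In that fit 13 members had an unadjusted p under 0.05, and the share of all tested genes is not given here. Without the block it was 12 members, where 6.89% of all tested genes were lower at that p. Pools of 3 against 3 limit an exact test to a p of 0.1.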
